A study of Rattus norvegicus with 9 samples.

Results

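Genes of bone morphogenetic protein (BMP) signalling were examined in cultures of neural stem cells (NSCs), which give rise to neurons and glia. The 10 genes were listed by symbol, by a rule that uses no measured value: the ligand genes Bmp4 and Bmp7, the receptor genes Bmpr1a, Bmpr1b and Bmpr2, the inhibitory Smad gene Smad6, and the target genes Id1, Id2, Id3 and Id4. They are 10 of the 23953 genes in the count table, and all 10 were among the 15458 genes that passed the filter on low counts over the 3 groups. Rat NSCs, isolated according to the study's methods from the spinal cords of neonatal animals, were all kept in differentiation medium containing fibroblast growth factors and serum. The Con group had this medium alone. Exosomes, small secreted vesicles, of bone marrow mesenchymal stem cells (BMSCs) were added in the Exo group, and exosomes of BMSCs that overexpressed Wnt5a in the pLV-Exo-Wnt5a group. Following the methods, the donor BMSCs carried an empty lentiviral vector in the Exo group and a lentiviral vector with rat Wnt5a in the pLV-Exo-Wnt5a group, so the transgene was in the donor cells and not in the NSCs. Each group had 3 RNA-seq libraries. The labels do not say that the libraries of a group came from separate cultures, so p-values measure only the spread between these libraries, which may be technical.

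BMP ligands bind a complex of type I receptors (among them Bmpr1a and Bmpr1b) and type II receptors (among them Bmpr2), which phosphorylates Smad1, Smad5 and Smad9. These Smads enter the nucleus with Smad4 and switch on target genes, of which the Id genes are the best known, whereas Smad6 is an inhibitory Smad that is itself induced by the pathway. Id proteins bind E proteins and keep them from pairing with basic helix-loop-helix (bHLH) factors such as the proneural factors, and in neural stem cells BMP signalling is known for favouring astrocytes and quiescence over neurons.

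Total counts were between 32765138 and 40427647 per library, so that a count of 0 allowed up to 3 counts, or 0.0742 to 0.0916 CPM (a count over its library's total, scaled to one fixed library size). Such limits leave out every error but that of counting. All CPM values below were scaled with TMM factors over the 9 libraries. Of the 9 Hox genes listed as markers of spinal cord position, 3 (Hoxc6, Hoxc9 and Hoxc10) were in the table, and their sum was at most 0.0517 CPM in any library, below the limit for a count of 0. The markers of the labelled spinal cord source that could be examined were thus at or near 0, and the cells are called NSC cultures here. Summed, the markers of astrocytes, neurons, the oligodendrocyte lineage and neural stem cells each exceeded 1232 CPM in every library, although single markers such as Mog and Mobp were at most 0.59 CPM. In such bulk libraries, fewer cells of a type and less RNA per cell cannot be told apart. Over all genes, Con replicate 1 stood apart from the other Con libraries, from which its counts differed by 27.7 and 38.2 in chi-square per degree of freedom, beside 6.13 between Con replicates 2 and 3, and values that rest on it most are given without it as well.

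To learn whether exosomes, and Wnt5a-modified exosomes, went with a different level of the pathway, each pair of groups was tested on all genes by edgeR's quasi-likelihood method. A gene was called at Q under 0.05, where Q is the Benjamini-Hochberg adjusted p over all genes tested. None of the 10 genes was called in any of the 3 pairwise comparisons. Their Q values ran from 0.296 to 0.808 between Exo and Con, from 0.317 to 0.903 between pLV-Exo-Wnt5a and Exo, and from 0.571 to 0.987 between pLV-Exo-Wnt5a and Con. DESeq2 also called 0 of the 10 in each comparison. Few genes of the whole table were called in any case, namely 0.00664% of the genes tested between Exo and Con, 0.436% between pLV-Exo-Wnt5a and Exo, and 0.0862% between pLV-Exo-Wnt5a and Con. A Q above the threshold does not show that the levels were alike. The 95% intervals of the fold changes show what these libraries leave possible, and for all members but Smad6 their far ends stayed within 2.01-fold between Exo and Con, 1.68-fold between pLV-Exo-Wnt5a and Exo, and 1.56-fold between pLV-Exo-Wnt5a and Con.

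**Figure D1:**
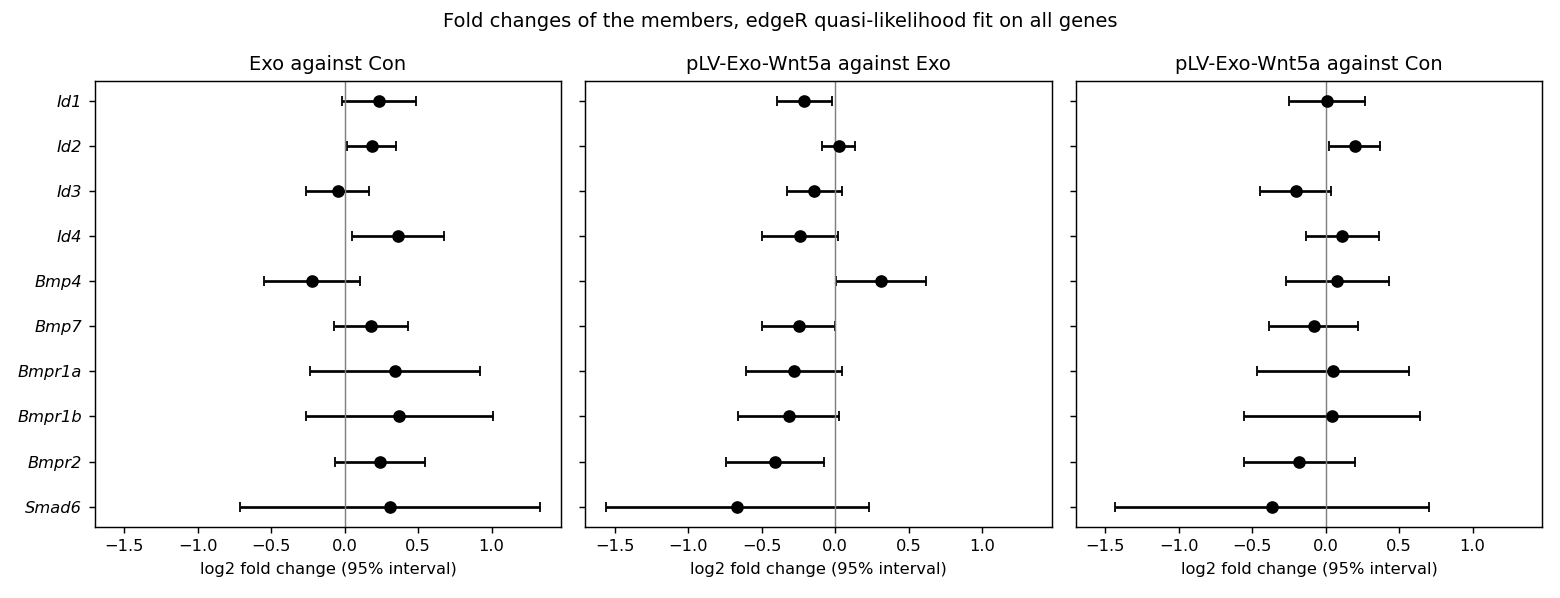
Log2 fold change (x axis) of each member (y axis) in the 3 comparisons, with 95% intervals from edgeR's quasi-likelihood fit as bars. The intervals of Id2 and Id4 lie above 0 between Exo and Con, those of Id1 and Bmpr2 lie below 0 and that of Bmp4 above 0 between pLV-Exo-Wnt5a and Exo, and Smad6 has the widest interval in each panel.

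At an unadjusted p under 0.05, which leaves the number of genes tested out of account, 2 members passed between Exo and Con, where 14.9% of all genes did: Id2 and Id4, both higher in Exo. Between pLV-Exo-Wnt5a and Exo, 3 members passed, beside 12% of all genes: Id1 and Bmpr2 were lower and Bmp4 higher with the Wnt5a-modified exosomes. In the comparison of pLV-Exo-Wnt5a with Con, 1 member passed, Id2, beside 8.35% of all genes. Counted by levels that did not overlap between the groups, there were 5 members between Exo and Con, beside 23.3% of all genes, 4 between pLV-Exo-Wnt5a and Exo, beside 16.4%, and 1 between pLV-Exo-Wnt5a and Con, beside 17.1%. No test was made of whether these shares differ from those of all genes. The median log2FC of the 10 members was 0.24 between Exo and Con, -0.24 between pLV-Exo-Wnt5a and Exo and 0.03 between pLV-Exo-Wnt5a and Con, whereas the medians over all genes tested were 0.00 in all 3. The first and second of these comparisons share the Exo libraries, so a member that was high in Exo appears in both with opposite sign.

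**Figure D2:**
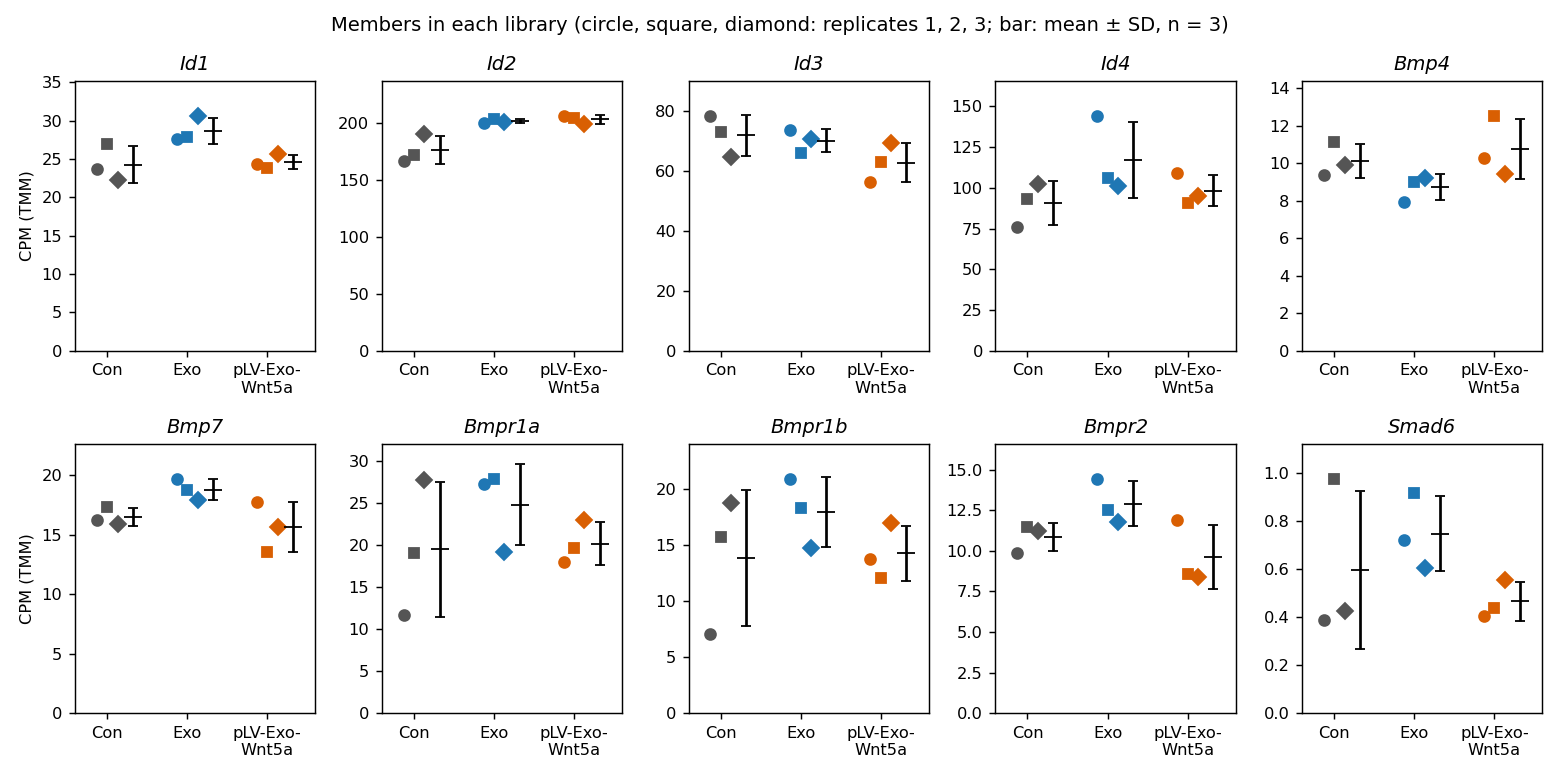
CPM (y axis, from 0) of each member in every library, by group (x axis), with circles, squares and diamonds for replicates 1, 2 and 3 and bars for the mean ± SD of 3 libraries. All 3 Con libraries of Id2 lie below the Exo and pLV-Exo-Wnt5a libraries, and Con replicate 1 is the lowest library for Bmpr1a and Bmpr1b.

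Both ligand genes were measured at low but well-counted levels, between 306 and 761 counts per library. Bmp4 (NCBI gene number 12159 in the table), a ligand that acts on neural progenitors from early development on, was at 9.34, 11.1 and 9.89 CPM in Con replicates 1, 2 and 3, at 7.91, 9.01 and 9.22 CPM in the Exo replicates, and at 10.3, 12.5 and 9.42 CPM in the pLV-Exo-Wnt5a replicates. Every Exo library was below every library of the other groups, by a narrow margin, whereas Con and pLV-Exo-Wnt5a overlapped. The log2FC was 0.31 between pLV-Exo-Wnt5a and Exo (standard error 0.14, unadjusted p = 0.0481, Q = 0.411, edgeR's quasi-likelihood method), -0.22 between Exo and Con (Q = 0.458) and 0.08 between pLV-Exo-Wnt5a and Con (Q = 0.902). The first of these rested in part on pLV-Exo-Wnt5a replicate 2, the highest Bmp4 library, without which it was 0.19.

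Bmp7 (12162), a ligand that signals through the same receptors, was at 16.2, 17.3 and 15.9 CPM in Con, at 19.7, 18.7 and 17.9 CPM in Exo, and at 17.7, 13.5 and 15.7 CPM in pLV-Exo-Wnt5a. Its Exo libraries stood above all others, the reverse of Bmp4, with the lowest Exo library and the highest pLV-Exo-Wnt5a library close together. The log2FC was 0.18 between Exo and Con (Q = 0.440), -0.25 between pLV-Exo-Wnt5a and Exo (standard error 0.11, unadjusted p = 0.0511, Q = 0.422) and -0.08 between pLV-Exo-Wnt5a and Con (Q = 0.881). Without pLV-Exo-Wnt5a replicate 2, the lowest Bmp7 library, the second of these was -0.16. For both ligands, the group means of Con and pLV-Exo-Wnt5a, neighbours in the order of levels, differed by less than the SD of the pLV-Exo-Wnt5a libraries. That holds for Bmp4 at 10.1 ± 0.91 and 10.7 ± 1.59 CPM and for Bmp7 at 16.5 ± 0.75 and 15.6 ± 2.12 CPM (SD, n = 3 each).

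Among the receptor genes, the spread within the Con group was wider than any difference between groups for the type I receptors, while Bmpr2 varied less. Bmpr1a (12166), the type I receptor also known as ALK3, was at 11.8, 19.1 and 27.8 CPM in Con, at 27.3, 27.9 and 19.3 CPM in Exo, and at 18.0, 19.6 and 23.1 CPM in pLV-Exo-Wnt5a. The Con libraries spanned nearly the whole range of the other groups, and all 3 groups overlapped. Its log2FC between Exo and Con was 0.34, with a 95% interval from -0.24 to 0.92 (Q = 0.517), and this value was 0.08 without Con replicate 1 and 0.67 without Con replicate 3.

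Bmpr1b (12167), the type I receptor also known as ALK6, was at 7.09, 15.7 and 18.7 CPM in Con, at 20.9, 18.3 and 14.7 CPM in Exo, and at 13.8, 12.1 and 17.0 CPM in pLV-Exo-Wnt5a. Con replicate 1 was again the lowest of the 9 libraries, and the groups overlapped in every comparison. The log2FC between Exo and Con was 0.37, with a 95% interval from -0.27 to 1.01 (Q = 0.519), and 0.05 without Con replicate 1 but 0.64 without Con replicate 3. Between pLV-Exo-Wnt5a and Exo, a comparison that Con replicate 1 does not enter, the log2FC was -0.28 for Bmpr1a (Q = 0.505) and -0.32 for Bmpr1b (Q = 0.463). Single libraries moved these values too, to -0.43 for Bmpr1a without Exo replicate 3 and to -0.20 for Bmpr1b without Exo replicate 1. Between pLV-Exo-Wnt5a and Con it was 0.05 and 0.04, and without Con replicate 1 it turned to -0.21 and -0.27.

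Bmpr2 (12168), the type II receptor, was at 9.86, 11.5 and 11.2 CPM in Con, at 14.4, 12.5 and 11.7 CPM in Exo, and at 11.9, 8.56 and 8.38 CPM in pLV-Exo-Wnt5a. The 3 Exo libraries were above the 3 Con libraries, and 2 of the 3 pLV-Exo-Wnt5a libraries were below all others, with pLV-Exo-Wnt5a replicate 1 at the level of the lowest Exo library. Its log2FC between pLV-Exo-Wnt5a and Exo was -0.41 (standard error 0.15, 95% interval -0.75 to -0.07), with the smallest unadjusted p of any member in that comparison (unadjusted p = 0.0212, Q = 0.317, edgeR's quasi-likelihood test). The log2FC was 0.24 between Exo and Con (Q = 0.406) and -0.18 between pLV-Exo-Wnt5a and Con (Q = 0.785), the last running from -0.36 to -0.085 as single libraries were left out.

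Smad6 (17130), which blocks the receptor-activated Smads and is a target of the pathway as well, had only 14 to 38 counts per library. It was at 0.389, 0.976 and 0.426 CPM in Con, at 0.724, 0.916 and 0.606 CPM in Exo, and at 0.404, 0.438 and 0.557 CPM in pLV-Exo-Wnt5a. The Exo libraries were all above the pLV-Exo-Wnt5a libraries, while Con spanned both. The log2FC of -0.67 between pLV-Exo-Wnt5a and Exo had a 95% interval from -1.56 to 0.23 (Q = 0.572), so at this depth a level 0.34 times that of Exo, no difference and a slightly higher level could not be told apart. Between Exo and Con the log2FC was 0.31, with a 95% interval from -0.71 to 1.33 (Q = 0.740), and it was 0.86 without Con replicate 2, the highest library, and 0.073 without Con replicate 1. It was -0.37 between pLV-Exo-Wnt5a and Con (Q = 0.848).

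The Id genes are the members closest to a readout of BMP signalling. The stretch of 200 bases before the annotated start of each of the 4 genes is shown with the short motifs it carries. Any relation of these motifs to the levels was not tested. Sequences are from RefSeq for the rat assembly GRCr8, read 5′ to 3′ on the strand of the gene: Id1 at chr3:161671364-161671563 (plus strand), Id2 at chr6:47470996-47471195 (minus strand), Id3 at chr5:153656091-153656290 (plus strand) and Id4 at chr17:16598294-16598493 (minus strand). Capitals mark matches on either strand to CCAAT in Id1 and Id2, to TATAAA in Id1 and to GGAGCC in Id3, and Id4 has none.
Id1: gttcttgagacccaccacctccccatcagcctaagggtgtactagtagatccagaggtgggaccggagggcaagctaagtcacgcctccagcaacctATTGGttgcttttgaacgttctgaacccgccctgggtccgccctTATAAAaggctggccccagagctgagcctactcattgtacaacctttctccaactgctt
Id2: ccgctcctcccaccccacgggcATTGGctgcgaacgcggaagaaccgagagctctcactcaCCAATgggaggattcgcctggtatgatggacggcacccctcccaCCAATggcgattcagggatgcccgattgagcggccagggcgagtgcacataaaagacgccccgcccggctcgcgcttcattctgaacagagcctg
Id3: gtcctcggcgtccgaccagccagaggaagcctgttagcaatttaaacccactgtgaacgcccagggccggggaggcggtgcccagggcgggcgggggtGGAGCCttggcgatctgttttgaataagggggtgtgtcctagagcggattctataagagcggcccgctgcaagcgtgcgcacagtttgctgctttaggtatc
Id4: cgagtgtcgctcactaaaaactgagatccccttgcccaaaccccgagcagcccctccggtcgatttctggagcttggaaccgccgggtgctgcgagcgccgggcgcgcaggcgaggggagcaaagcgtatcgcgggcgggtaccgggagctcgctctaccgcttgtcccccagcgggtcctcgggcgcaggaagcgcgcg

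Promoters were given for 7 of the 10 members, all but Bmp7, Bmpr1b and Smad6, and 250 bases before the start were searched on both strands for 5 motifs. CCAAT was in 2 of the 7, Id1 (1 match) and Id2 (3 matches), beside 34% of the 33469 promoters of the same length. The TATA box TATAAA was in 2, Id1 and Bmpr1a, beside 12.9% of all promoters. Of the GC-rich elements that BMP Smads are known to bind, GGCGCC was in 0 of the 7, beside 8.69% of all, and its variant GGAGCC was in Id3 and Bmp4, beside 23%. The palindromic Smad element GTCTAGAC was in 0, beside 0.173%. No motif is contained in another. A match is a description and not a binding site, and BMP-responsive stretches farther from the start would not be seen in this window.

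Id2 was the member whose level separated the Con group from both exosome groups. Id2 (15902), which in progenitors holds back bHLH factors of differentiation, was at 166, 172 and 190.2 CPM in Con, at 200.1, 203 and 201 CPM in Exo, and at 206, 204 and 199 CPM in pLV-Exo-Wnt5a. All 6 libraries with exosomes were above the 3 Con libraries, and the exosome groups overlapped each other. The log2FC was 0.19 between Exo and Con (standard error 0.07, 95% interval 0.02 to 0.35, unadjusted p = 0.0322, Q = 0.302) and 0.20 between pLV-Exo-Wnt5a and Con (standard error 0.08, unadjusted p = 0.0295, Q = 0.571), 2 values that share the Con libraries. Between the exosome groups the log2FC was 0.02, with a 95% interval from -0.09 to 0.14, the narrowest of any member. In the test for any difference among the 3 groups, Id2 had the smallest p of the members (unadjusted p = 0.0140, Q = 0.262).

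Id4 (15904), the Id gene linked to adult neural stem cell quiescence, had its highest level in a single Exo library. It was at 76.2, 92.9 and 103 CPM in Con, at 144, 106 and 101 CPM in Exo, and at 109, 90.5 and 95.2 CPM in pLV-Exo-Wnt5a. Exo replicate 1 stood above all other libraries and Con replicate 1 below them, with the remaining 7 intermixed, so that no pair of groups separated. The log2FC between Exo and Con was 0.36 (standard error 0.14, 95% interval 0.05 to 0.67), and its p was the smallest of the members in that comparison (unadjusted p = 0.0268, Q = 0.296, edgeR's quasi-likelihood test). Without Exo replicate 1 it was 0.20, and without Con replicate 1 it was 0.25. The log2FC of -0.24 between pLV-Exo-Wnt5a and Exo (Q = 0.471) was -0.07 without Exo replicate 1.

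Id1 (15901), an early target of BMP in many cell types, was at 23.7, 26.9 and 22.3 CPM in Con, at 27.6, 27.8 and 30.6 CPM in Exo, and at 24.3, 23.8 and 25.6 CPM in pLV-Exo-Wnt5a. The Exo libraries were above all others, and Con and pLV-Exo-Wnt5a overlapped. The log2FC was 0.23 between Exo and Con (standard error 0.11, unadjusted p = 0.0687, Q = 0.355), -0.21 between pLV-Exo-Wnt5a and Exo (standard error 0.09, unadjusted p = 0.0319, Q = 0.361) and 0.01 between pLV-Exo-Wnt5a and Con (Q = 0.987).

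Id3 (15903), which is often induced together with Id1, was at 78.2, 72.8 and 64.6 CPM in Con, at 73.5, 65.9 and 70.6 CPM in Exo, and at 56.1, 62.9 and 69.3 CPM in pLV-Exo-Wnt5a. All groups overlapped, with the lowest library in pLV-Exo-Wnt5a. The log2FC was -0.05 between Exo and Con (Q = 0.808), -0.14 between pLV-Exo-Wnt5a and Exo (Q = 0.561) and -0.20 between pLV-Exo-Wnt5a and Con (Q = 0.647), and the first of these turned to 0.018 without Con replicate 1. The second of these values ran from -0.23 to -0.065 as single libraries were left out, the ends being without pLV-Exo-Wnt5a replicates 3 and 1, and the last was -0.13 without Con replicate 1. Summed over the 4 Id genes, levels ran from 345 to 379.6 CPM in Con, from 403 to 445 CPM in Exo and from 381 to 395 CPM in pLV-Exo-Wnt5a. The 3 ranges did not overlap, but those of Con and pLV-Exo-Wnt5a nearly met, and no single Id gene separated all 3 groups. How often sums of other genes separate the 3 groups was not computed. Id2 supplied the most counts to the Id sum, which is not corrected for gene length, and no test was made of it.

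Across the 3 groups at once, 0 of the 10 members passed Q under 0.05 in edgeR's quasi-likelihood F test on the 9 libraries, beside 0.246% of all genes tested, and DESeq2 also gave 0. Without the filter on low counts, 1 member passed, Id4 (Q = 0.0439), in an edgeR fit that called 981 of 23953 genes. At an unadjusted p under 0.05, 1 member passed, Id2, beside 14.8% of all genes. After Id2 came Id4 (unadjusted p = 0.0527, Q = 0.344), Bmpr2 (Q = 0.351) and Id1 (Q = 0.356), and the 6 others had Q from 0.431 (Bmp7) to 0.653 (Smad6).

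The levels of the members were set against each other over the 9 libraries, on log2 CPM with a prior count of 2. These correlations are a description, since the libraries share the group differences and Con replicate 1 pulls several pairs. Of 45 pairs, 31 had a positive Pearson's r and 2 had r over 0.8. The type I receptor genes Bmpr1a and Bmpr1b went together most closely, with r = 0.94 (Spearman's rho 0.82, n = 9 libraries), and r = 0.86 over the 8 libraries without Con replicate 1. Bmp7 and Bmpr2 followed with r = 0.90 (rho 0.95), unchanged at 0.90 without Con replicate 1. The ligands ran against each other, with r = -0.75 between Bmp4 and Bmp7 (rho -0.73) and -0.79 without Con replicate 1. Among the Id genes the signs were mixed, with r between 0.59 (Id2 and Id4) and -0.67 (Id2 and Id3). These rested in part on Con replicate 1, without which they were 0.29 and -0.48, Id3 and Id4 turned from -0.20 to 0.18, and Id1 with Id3 was the highest of the Id pairs at 0.60.

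**Figure D3:**
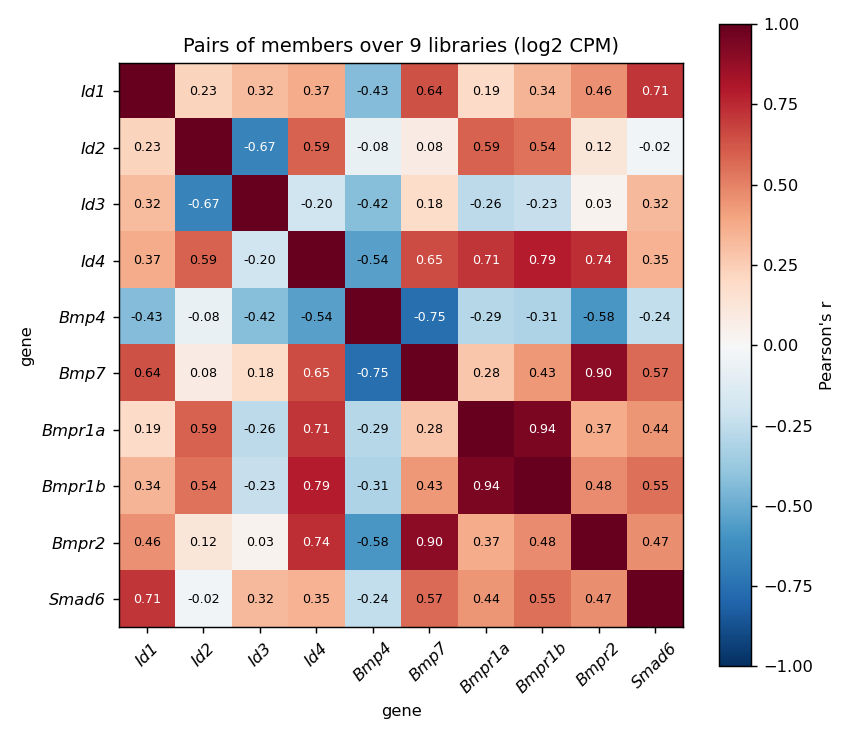
Pearson's r between the log2 CPM of each pair of members (both axes) over 9 libraries, from blue (-1) through white (0) to red (1). Bmpr1a with Bmpr1b at 0.94 and Bmp7 with Bmpr2 at 0.90 are the pairs over 0.8, and the Bmp4 row is negative against all other members.

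Of all genes that passed the filter, those whose log2 CPM was most like an Id gene over the 9 libraries differed for each Id gene. For Id1 these were Nhsl2 (r = 0.94), Tmie (r = 0.91) and Pcdhb15 (r = 0.91). Id2 was followed by A930012L18Rik (r = 0.96), Pcdhb9 (r = 0.95) and Frmd3 (r = 0.95, but rho 0.62). The genes most like Id3 were Rasl12, Nkx2-2, a transcription factor of ventral progenitors and the oligodendrocyte lineage, and Gm10069 (r = 0.93 each). Id4 had the closest matches, with Plagl1, an imprinted zinc finger gene (r = 0.99), Wasl (r = 0.98) and Zfp326 (r = 0.98). No member was on these lists for another member. The highest of 15458 correlations over 9 libraries are high by selection, so they describe likeness in these libraries only.

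The rest of the pathway was followed with 9 lists of 75 other genes, of which 71 were in the table and 57 to 59 were tested in a comparison. By edgeR's quasi-likelihood method, 0 were called at Q under 0.05 in any comparison, whereas DESeq2 called 2 in each: Acvr2a and Neurod1 between Exo and Con, Skil and Tcf4 between pLV-Exo-Wnt5a and Exo, and Fst and Hes5 between pLV-Exo-Wnt5a and Con. The shares of all genes called at Q under 0.05 given above are edgeR's. Those of DESeq2 are not given here, so its calls have no share of all genes beside them. At an unadjusted p under 0.05 in edgeR, 9 were higher and 6 lower in Exo than in Con, 3 were higher and 4 lower in pLV-Exo-Wnt5a than in Exo, and 7 were higher and 3 lower in pLV-Exo-Wnt5a than in Con, so that 18 of 59 genes passed in at least 1 comparison. The counts of the single comparisons are to be read beside 14.9%, 12% and 8.35% of all genes. The share of all genes that passed in at least 1 comparison was not computed, so the 18 of 59 cannot be set beside these shares.

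**Figure D4:**
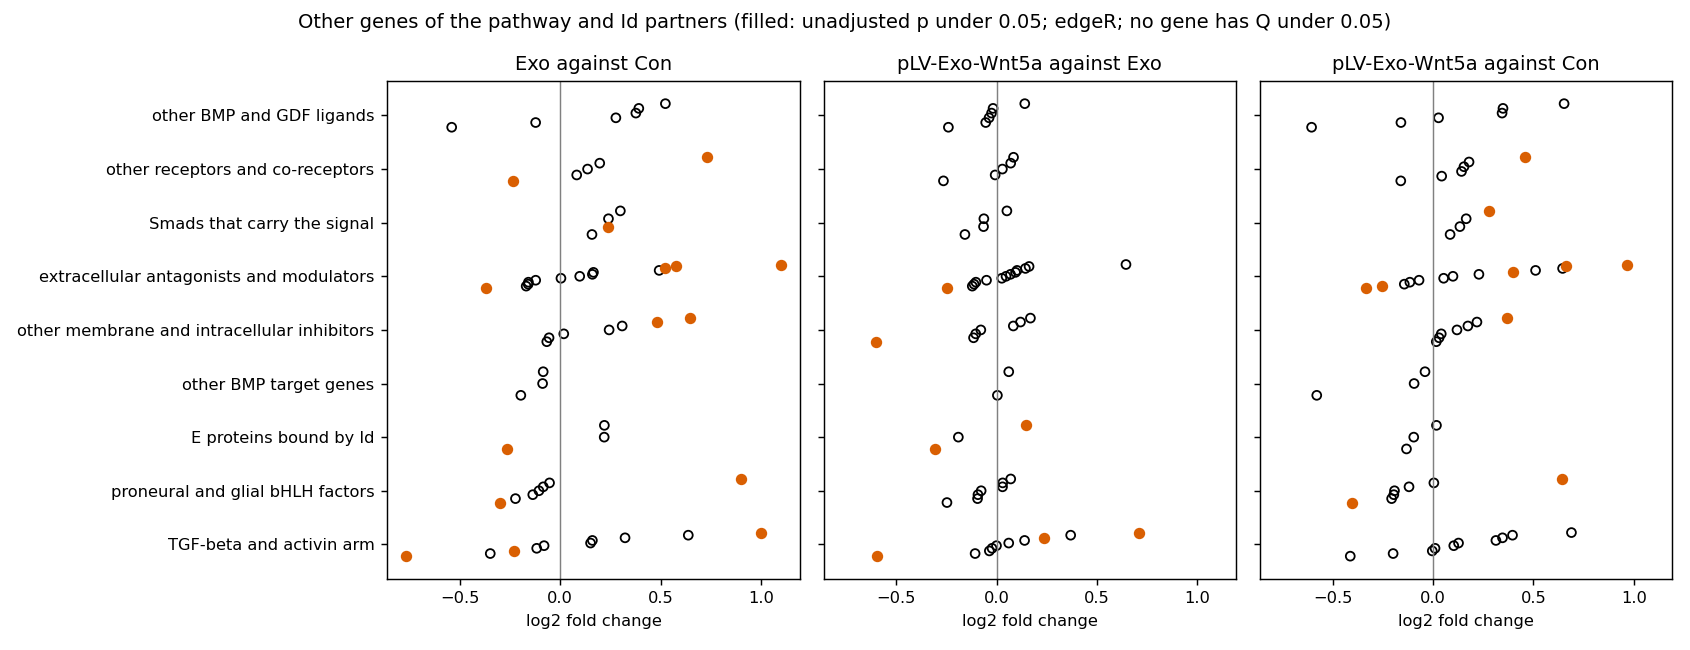
Log2 fold change (x axis) of each tested gene of the 9 other lists (y axis) in the 3 comparisons, with filled points for an unadjusted p under 0.05. No gene has Q under 0.05 in edgeR, and filled points lie on both sides of 0 in each comparison.

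Upstream of the receptors, the antagonist list held 13 tested genes, of which 3 were higher and 1 lower in Exo than in Con at an unadjusted p under 0.05, beside 14.9% of all genes. Between pLV-Exo-Wnt5a and Con, 3 were higher and 2 lower, beside 8.35%, and between pLV-Exo-Wnt5a and Exo 0 were higher and 1 lower, beside 12%. Fst, which encodes follistatin, a secreted trap for activins and some BMPs, was at 8.43 ± 1.59 CPM in Con, 12.6 ± 1.55 CPM in Exo and 13.4 ± 1.45 CPM in pLV-Exo-Wnt5a (SD, n = 3 each). All libraries with exosomes were above the Con libraries, with a log2FC of 0.58 between Exo and Con (Q = 0.265) and 0.66 between pLV-Exo-Wnt5a and Con (Q = 0.354). Twsg1, a secreted BMP-binding modulator, had a log2FC of 0.52 between Exo and Con (Q = 0.270), and 0.32 without Con replicate 1. Sostdc1, a secreted BMP and Wnt antagonist, had a log2FC of 1.10 (Q = 0.273), from 0.518 ± 0.030 CPM in Con to 1.12 ± 0.26 CPM in Exo. The gene that was lower in Exo than in Con was Nbl1, a secreted BMP antagonist of the DAN family with the most counts of this list. It was at 92.6 ± 17.1 CPM in Con, 72.2 ± 3.71 CPM in Exo and 73.9 ± 4.18 CPM in pLV-Exo-Wnt5a. All libraries with exosomes were below the Con libraries, with a log2FC of -0.37 between Exo and Con (Q = 0.277) and -0.33 between pLV-Exo-Wnt5a and Con (Q = 0.556), which without Con replicate 1 were -0.21 and -0.17. None of the 6 other ligand genes tested passed at an unadjusted p under 0.05 in any comparison, and Gdf11 had the most counts among them, at 68.0 to 80.6 CPM.

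Among the other receptor genes, Acvr2a, a type II receptor shared by activins and BMPs, was at 5.35, 6.52 and 7.98 CPM in Con, at 11.9, 11.6 and 9.63 CPM in Exo, and at 8.28, 9.27 and 9.74 CPM in pLV-Exo-Wnt5a. The Con libraries were below all others, and Exo and pLV-Exo-Wnt5a overlapped. Its log2FC was 0.73 between Exo and Con (Q = 0.265) and 0.46 between pLV-Exo-Wnt5a and Con (Q = 0.559). The co-receptor gene Rgma had the most counts of the receptor list, at 473 to 663 CPM, with a log2FC of -0.23 between Exo and Con (Q = 0.306), and -0.15 without Con replicate 1.

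Of the 4 Smad genes that carry the signal, Smad1 was the one that passed at an unadjusted p under 0.05. It was at 50.8 ± 1.75 CPM in Con, 60.2 ± 0.85 CPM in Exo and 61.8 ± 1.57 CPM in pLV-Exo-Wnt5a (SD, n = 3 each), so that its Con libraries lay below all others, as for Id2. The log2FC was 0.24 between Exo and Con (Q = 0.277) and 0.28 between pLV-Exo-Wnt5a and Con (Q = 0.488). Summed, the 4 Smad genes, led in counts by Smad4, were at 229 CPM in the lowest Con library, against 311 and 323 CPM in the other Con libraries.

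Among the intracellular inhibitors, Tob1, which dampens BMP Smads, had a log2FC of 0.48 between Exo and Con (Q = 0.265), and Skil, a Smad corepressor, had 0.64 between Exo and Con (Q = 0.295, and 0.41 without Con replicate 1) and -0.60 between pLV-Exo-Wnt5a and Exo (Q = 0.193). Ski had the most counts of this list, at 263 to 312 CPM. Hey1, at 68.4 to 89.3 CPM, had the most counts of the other BMP target genes, and none of these passed at an unadjusted p under 0.05.

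Among the partners of the Id proteins, 6 of the 7 tested proneural and glial bHLH genes had a lower level in Exo than in Con, as did 7487 of all 15070 genes tested, with 1 lower and 1 higher at an unadjusted p under 0.05, beside 14.9% of all genes. Between pLV-Exo-Wnt5a and Exo, 4 of the 7 were lower and 0 passed. Of the 3 E protein genes, Tcf4 was at 44.8 ± 4.93 CPM in Con, 52.4 ± 4.90 CPM in Exo and 42.1 ± 1.60 CPM in pLV-Exo-Wnt5a (SD, n = 3 each), with a log2FC of -0.31 between pLV-Exo-Wnt5a and Exo (Q = 0.158). Tcf3, the E protein gene with the most counts, was at 145 ± 16.7 CPM in Con, 121 ± 7.36 CPM in Exo and 133 ± 5.23 CPM in pLV-Exo-Wnt5a, with a log2FC in the opposite direction, of -0.27 between Exo and Con (Q = 0.284), or -0.17 without Con replicate 1, and 0.15 between pLV-Exo-Wnt5a and Exo (Q = 0.385). Hes5, a bHLH repressor downstream of Notch, was at 185, 160.2 and 159 CPM in Con, at 140.3, 133 and 138 CPM in Exo, and at 129.6, 127 and 126 CPM in pLV-Exo-Wnt5a. Its 3 groups did not overlap, with Con the highest, and the log2FC was -0.30 between Exo and Con (Q = 0.265) and -0.41 between pLV-Exo-Wnt5a and Con (Q = 0.224). Neurod1, a proneural factor of differentiating neurons, went the other way, from 7.09 ± 1.88 CPM in Con to 13.3 ± 1.47 CPM in Exo and 11.1 ± 2.21 CPM in pLV-Exo-Wnt5a, with a log2FC of 0.90 between Exo and Con (Q = 0.265) and 0.65 between pLV-Exo-Wnt5a and Con (Q = 0.505). Olig1, a factor of the oligodendrocyte lineage, had the most counts of the bHLH list, at 840.4 to 1139 CPM.

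In the related TGF-beta and activin arm, Smad3, which carries that signal, had a log2FC of 0.24 between pLV-Exo-Wnt5a and Exo (Q = 0.185) and -0.23 between Exo and Con (Q = 0.302). The receptor gene Tgfbr2 had a log2FC of 0.71 between pLV-Exo-Wnt5a and Exo (Q = 0.211), from 2.92 ± 0.73 to 4.72 ± 0.65 CPM (SD, n = 3 each). Inhbb, an activin subunit gene, had the most counts of this list, at 41.0 to 55.4 CPM.

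Markers of cell types were set beside these levels. The sum of the 10 astrocyte markers was 5189 to 6230 CPM in Con, 5086 to 5231 CPM in Exo and 6775 to 7138 CPM in pLV-Exo-Wnt5a, and the sum of the 8 microglia markers was 6.86 to 8.61, 4.32 to 5.33 and 7.05 to 9.21 CPM. The microglia range was lowest in Exo, but this sum was at most 9.21 CPM in any library. The medians of the astrocyte, oligodendrocyte lineage and neural stem cell sums were lowest in Exo as well, while that of the neuron sum was highest there. The astrocyte sum was carried by Gfap, and without it the other 9 markers summed to 2927 to 3175, 2877 to 3008 and 2693 to 3108 CPM, ranges that overlap. Of the 10 astrocyte markers, 7 had a higher mean in Exo than in Con (median log2FC 0.14) and 6 a lower one in pLV-Exo-Wnt5a than in Exo (median log2FC -0.16). At an unadjusted p under 0.05, 3 were lower and 2 higher in pLV-Exo-Wnt5a than in Exo, beside 12% of all genes. The 10 neuron markers summed to 3129 to 3227, 3091 to 3608 and 2911 to 3731 CPM, the 9 oligodendrocyte lineage markers to 1385 to 1567, 1240 to 1350 and 1233 to 1415 CPM, and the 7 neural stem cell markers to 3044 to 3207, 2581 to 3078 and 2977 to 3922 CPM. By gene rather than by sum, 5 of the 10 neuron markers were higher in Exo than in Con at an unadjusted p under 0.05 (median log2FC of the 10 0.28), while 3 of 8 tested oligodendrocyte lineage, 2 of 7 neural stem cell and 2 of 5 tested microglia markers were lower, beside 14.9% of all genes, and none of these was called at Q under 0.05. In all marker lists, 3 genes were called between pLV-Exo-Wnt5a and Exo: the astrocyte filament gene Gfap rose (log2FC 0.86, Q = 3.36e-05) unlike most of its list, the gene of young neurons Dcx fell (log2FC -0.60, Q = 0.0113), and Vim, an intermediate filament gene of stem cells and astrocytes, rose (log2FC 0.62, Q = 0.0389). Fibroblast markers (8 genes) summed to 148 to 174, 155 to 164 and 134 to 147 CPM, endothelial markers (4 of 5 genes in the table) to 5.21 to 6.91, 4.80 to 8.06 and 4.21 to 7.03 CPM, and proliferation markers (6 genes) to 58.8 to 62.1, 50.7 to 77.7 and 49.2 to 82.6 CPM. No marker of these lists in the table was at 0 in all libraries. The part of these marker differences in the levels of the BMP and Id genes was not tested.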

How the data were processed

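RNA-seq was done on 9 libraries, 3 each of Con, Exo and pLV-Exo-Wnt5a. The values the authors deposited are raw counts of reads for each gene, in whole numbers. Per the labels, the submitters' processing notes name Bowtie2, RSEM 1.3.1 and DESeq2 1.4.5, whereas the paper's methods name HISAT2. The genome build and annotation are not given in the sources used here, and the genes carry mouse symbols and identifiers although the cells are described as rat, so symbols were matched to the rat RefSeq tables (GRCr8) for promoters only. The columns left without a sample numbered 0.

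From the counts, edgeR 4.0.16 (R 4.3.3) was used to keep genes by filterByExpr, scale libraries by TMM and fit quasi-likelihood models on the 6 libraries compared, or on all 9 for any difference among the 3 groups. Q values were Benjamini-Hochberg adjusted over all genes tested, a gene was called at Q under 0.05, and intervals are 95% intervals from the fit. DESeq2 1.42.0 was an alternative. The edgeR fits, pairwise and for any difference among the 3 groups, were checked on simulated counts, and the other steps were not. With 32765138 to 40427647 counts per library, counting error was small for all members but Smad6. Levels of different genes were not compared, since gene lengths were not used here.

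The rule for the members uses no measured value, but the members and gene lists were chosen with earlier results of these data known. Beyond the 10 members, the text names up to 12 genes of the other lists with an unadjusted p under 0.05 in at least 1 pairwise comparison (smallest p first), the gene with the most counts in each list, the 3 genes most like each Id gene, and the cell type markers. The listed genes Bmp10, Gdf2, Msx2, Atoh1, Tek, Hoxa5, Hoxb5, Hoxb6, Hoxb8, Hoxb9 and Hoxc8 were not analysed here, and 1 marker list is not reported here. Alternatives were RLE normalization, the filter left out or replaced by 10 counts in each library, the replicate number as a block, DESeq2, a fit on all 9 libraries, an unadjusted p, an added fold change limit of 2 or 0.5, and leaving out each library. Values of other pathway genes without Con replicate 1 and of the astrocyte sum without Gfap were added after seeing the data.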

Additional observations from a re-analysis of the deposited data

How the results depend on the processing

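With Q under 0.05, the count of members called stayed at 0 in all 3 pairwise comparisons under RLE normalization, both other filters, DESeq2, the fit on all 9 libraries, the added fold change limit and each left-out library. With an unadjusted p under 0.05 in place of Q it was 2 between Exo and Con, 3 between pLV-Exo-Wnt5a and Exo, 1 between pLV-Exo-Wnt5a and Con, and 1 for any difference among the 3 groups. Without a filter on low counts, 1 member, Id4, passed in the test for any difference (Q = 0.0439), a fit over 23953 genes that called 981 of them, against 38 with the filter; the cause was not tested.

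With the replicate number as a block (replicate block), 0 members were called in every comparison. Deviations of same-numbered libraries from their group means had r between -0.20 and 0.06. With 3 libraries per group, these values cannot show whether libraries of the same number shared a culture or batch, and the labels do not say.

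Of 360 single values of members under the alternatives, 349 kept their direction and side of the threshold. The other 11 changed sign when 1 library was left out. The ranges over left-out libraries were -0.13 to 0.018 for Id3 between Exo and Con, and between pLV-Exo-Wnt5a and Con -0.057 to 0.087 for Id1, -0.037 to 0.17 for Bmp4, -0.18 to 0.019 for Bmp7, -0.21 to 0.38 for Bmpr1a, -0.27 to 0.31 for Bmpr1b and -0.59 to 0.19 for Smad6. Of 6 fits that each left out a library, Id2 had an unadjusted p under 0.05 in 3 between Exo and Con and 3 between pLV-Exo-Wnt5a and Con, Id4 in 4 between Exo and Con, and Id1 in 3, Bmpr2 in 3 and Bmp4 in 1 between pLV-Exo-Wnt5a and Exo. Without Con replicate 1, an alternative chosen after seeing the data, the edgeR values of the other pathway genes named against Con kept their direction. None of them was called by edgeR. DESeq2, which with that library called Acvr2a, Neurod1, Fst and Hes5 against Con, was not read for these genes without it. With 14 to 38 counts, depth limits Smad6 most.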
